A study of Mus musculus with 10 samples.

Results

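The 7 genes described here are the 3 Nr4a receptor genes Nr4a1, Nr4a2 and Nr4a3 and the neuronal activity genes Arc, Npas4, Ptgs2 and Inhba. They were taken by symbol from the gene lists of the deposited matrices, all 7 were found, and they were 7 of 30406 genes listed for every library. The study measured single-cell transcriptomes of the medial prefrontal cortex (mPFC) of male C57BL/6N mice more than 2 months old, and its title concerns prefrontal projections in social competition and hierarchy. One group held social dominants (Rank1, 5 libraries) and the other subordinates (Rank4, 5 libraries), with rank read in the tube test, in which mice meet in a narrow tube and one backs out. Each library pooled tissue punches of 2 to 3 mice taken 1 day after the last tube test, so a value stands for a pool and a p-value measures the spread between pools. The labels name no allele or drug in either group, and all tissue was digested with papain at 37 °C for 60 min before droplets were made. The part of that digestion in any level given here was not tested.

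All 7 are immediate early or early response genes, which neurons and many other cells transcribe within minutes of a strong stimulus, largely through factors that are already present and bind cAMP response elements (CRE) and serum response elements. Nr4a1, Nr4a2 and Nr4a3 encode orphan nuclear receptors that bind DNA without a known natural ligand. Npas4 encodes a neuron-restricted transcription factor that follows calcium entry, and Arc encodes a protein of dendrites and synapses that takes part in the removal of AMPA receptors. Ptgs2 encodes the inducible cyclooxygenase that makes prostaglandin precursors, and Inhba encodes the subunit of the secreted factor activin A.

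The promoters of 6 members were matched by symbol in the RefSeq promoter table for GRCm38.p6, and Arc was not matched. A search for TGACG, the core of a CRE, on both strands (CGTCA on the other strand) of the 250 bases before each start found 4 in Nr4a1, 4 in Nr4a2, 4 in Nr4a3, 2 in Npas4, 0 in Ptgs2 and 0 in Inhba. Annotated exons cover 250 of the 250 bases of the Npas4 window and 152 of those of the Nr4a3 window. Of 32851 promoter windows of that length in the table, 17.8% held at least 1, 3.90% at least 2 and 0.137% at least 4. The full site TGACGTCA was in none of the 6 windows and in 1.55% of all windows. The windows of Nr4a1 (chr15:101266596-101266845, plus strand), Nr4a2 (chr2:57124004-57124253, minus strand), Ptgs2 (chr1:150099781-150100030, plus strand) and Inhba (chr13:16011601-16011850, plus strand) hold no base of an annotated exon. They are shown because the receptors and the secreted-signal genes lay at the ends of that count, with the TGACG or CGTCA matches in capitals, read 5′ to 3′ toward the start.
Nr4a1: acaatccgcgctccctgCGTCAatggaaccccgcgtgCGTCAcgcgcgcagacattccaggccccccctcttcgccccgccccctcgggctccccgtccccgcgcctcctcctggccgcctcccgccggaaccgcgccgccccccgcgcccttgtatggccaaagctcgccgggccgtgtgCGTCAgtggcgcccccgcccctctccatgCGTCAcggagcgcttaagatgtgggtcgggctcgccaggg
Nr4a2: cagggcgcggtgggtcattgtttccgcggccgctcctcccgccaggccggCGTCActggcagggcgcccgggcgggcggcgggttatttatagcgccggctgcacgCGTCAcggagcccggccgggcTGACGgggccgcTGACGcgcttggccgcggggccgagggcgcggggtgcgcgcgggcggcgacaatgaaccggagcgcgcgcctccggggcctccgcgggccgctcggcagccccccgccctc
Ptgs2: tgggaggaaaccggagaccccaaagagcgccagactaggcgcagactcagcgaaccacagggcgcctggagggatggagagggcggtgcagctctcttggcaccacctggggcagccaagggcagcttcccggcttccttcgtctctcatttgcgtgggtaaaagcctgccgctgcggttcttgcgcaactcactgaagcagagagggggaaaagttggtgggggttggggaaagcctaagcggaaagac
Inhba: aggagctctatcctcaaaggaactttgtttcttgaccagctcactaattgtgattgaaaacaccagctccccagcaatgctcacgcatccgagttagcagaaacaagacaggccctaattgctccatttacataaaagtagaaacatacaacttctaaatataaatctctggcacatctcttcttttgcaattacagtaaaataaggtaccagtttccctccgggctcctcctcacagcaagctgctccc
The RefSeq start of Nr4a1 used for its window lies inside the longer gene span of the GENCODE annotation. A match of these letters is a description of the sequence and not a binding site.

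The 10 matrices held between 4442750 and 29278466 UMIs (unique molecular identifiers, 1 per captured RNA molecule) over 64937 barcodes in all, and 44595 cells were kept. The Rank4 replicate 1 library stood apart in that 5193 of its 10103 barcodes were over the limit of 15% mitochondrial UMIs. Libraries shared at most 104 barcodes. Cells were named from marker genes with the members and other immediate early genes, 40 in all, left out of the clustering, and every name stands for cells that resemble that type. Tiparp, named below for its co-detection with members, was not among the 40. Excitatory neurons were the largest class, with 17658 cells and a median of 2183.5 UMIs, and all 8 of their markers were detected in both ranks. The 6 subclasses of them were named by layer and projection: layer 2/3, layer 5 and layer 6 intratelencephalic (L2/3 IT, 2313 cells; L5 IT, 2641; L6 IT, 2225), layer 5 pyramidal tract (L5 PT, 1002), layer 5/6 near-projecting (L5/6 NP, 853) and layer 6 corticothalamic (L6 CT, 3743). Another 4881 excitatory cells, with a median of 1036 UMIs, were not assigned to a layer.

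Every member was detected in all 10 matrices. Nr4a1 (GRCm38 chr15:101254269-101274795) had 17498 raw UMIs over all barcodes and was present in 16.8% of them, with 871 to 3285 UMIs in a library. Nr4a2 (chr2:57106830-57124003) had 6150 UMIs in 6.09% of barcodes and Nr4a3 (chr4:48045153-48086447) had 5601 in 6.93%. Arc (chr15:74669083-74672570) had 8349 UMIs in 8.50% of barcodes and Npas4 (chr19:4984355-4990316) had 7695 in 6.80%. Ptgs2 (chr1:150100031-150108227) had 2088 UMIs in 2.31% of barcodes. Inhba (chr13:16011851-16031621), which overlaps B230303A05Rik and Gm48444 on the other strand, had 1717 UMIs in 2.21%, and its lowest library held 23. A single cell could hold many molecules: the highest count in a barcode was 39 UMIs for Npas4, 24 for Ptgs2 and 22 for Nr4a1.

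Nr4a1 and Nr4a2 reached their highest levels in cells of blood vessels, and Arc and Npas4 theirs in excitatory neurons. Levels are given as UMIs counted relative to all UMIs of the summed cells of a class in a library and scaled to counts per 1e6 (CPM), as mean ± SD over libraries with at least 20 such cells, and compared between classes with edgeR's quasi-likelihood test with the library as a block. Of 54 tests of excitatory neurons against 9 other classes for the 6 members that passed the filter on low counts, 44 passed an adjusted p of 0.05. The same contrasts called 74.8% of all genes against astrocytes, 75.7% against endothelial cells, 71.9% against microglia, 66.4% against pericytes, 65.9% against oligodendrocyte precursors (OPC), 62.4% against oligodendrocytes, 59.2% against smooth muscle cells, 43.8% against committed OPC and 34.9% against inhibitory neurons.

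Nr4a1 stood highest in the cells of vessels. Its level was 742 ± 368 CPM in smooth muscle cells (n = 7 libraries) and 633 ± 407 in endothelial cells (n = 10), against 82.3 ± 22.5 in excitatory neurons (n = 10). In endothelial cells the libraries ran from 201 to 1281 CPM with a median of 409, and in excitatory neurons from 50.8 to 112 with a median of 78.8, so the lowest endothelial library was above the highest excitatory one. The level in excitatory neurons was below that in endothelial cells by a log2 difference of -2.92 (SE 0.24, adjusted p = 3.3e-20), in smooth muscle cells by -2.91, in pericytes by -1.99, in OPC by -1.42 and in microglia by -1.16, and above that in oligodendrocytes by 0.82. Pericytes had 412 ± 285 CPM, OPC 280 ± 177, microglia 161 ± 110, inhibitory neurons 78.9 ± 43.0, astrocytes 60.7 ± 21.5 and oligodendrocytes 38.2 ± 20.8. In this order smooth muscle and endothelial cells did not differ by the test, endothelial cells were above pericytes (log2 0.93), pericytes and OPC did not differ by the test, nor did OPC and microglia, and microglia were above excitatory neurons (log2 1.16). Endothelial cells were 9.41% of kept cells and held 26.8% of the Nr4a1 UMIs.

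Nr4a2 had the same 2 leading classes, with 481 ± 247 CPM in smooth muscle cells and 293 ± 189 in endothelial cells. It then dropped to 67.5 ± 56.0 CPM in pericytes, a step of 2.63 on the log2 scale that passed the test, and reached 31.7 ± 7.50 in excitatory neurons, 27.6 ± 13.4 in astrocytes and 5.94 ± 7.62 in oligodendrocytes. Excitatory neurons were below endothelial cells by a log2 difference of -3.10 (SE 0.24) and below smooth muscle cells by -3.72 (SE 0.28). They were above microglia (1.42), oligodendrocytes (1.50), inhibitory neurons (1.05) and OPC (0.90). Unlike Nr4a1, Nr4a2 was low in microglia and OPC, at 8.63 ± 2.64 and 17.6 ± 11.1 CPM.

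Nr4a3 was the receptor whose UMIs came mostly from excitatory neurons, which held 70.2% of them against 31.7% of the UMIs of Nr4a1 and 38.0% of those of Nr4a2. These neurons held 52.4% of the UMIs of all genes in kept cells. Its level was 154 ± 60.0 CPM in smooth muscle cells, 48.8 ± 28.4 in endothelial cells and 44.6 ± 17.1 in excitatory neurons. Smooth muscle cells were above endothelial cells by 1.71 on the log2 scale, while endothelial cells and excitatory neurons did not differ by the test (log2 0.16, SE 0.23). Excitatory neurons were above astrocytes (1.63), inhibitory neurons (1.28), oligodendrocytes (1.57), microglia (0.98) and OPC (0.91).

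**Figure D1:**
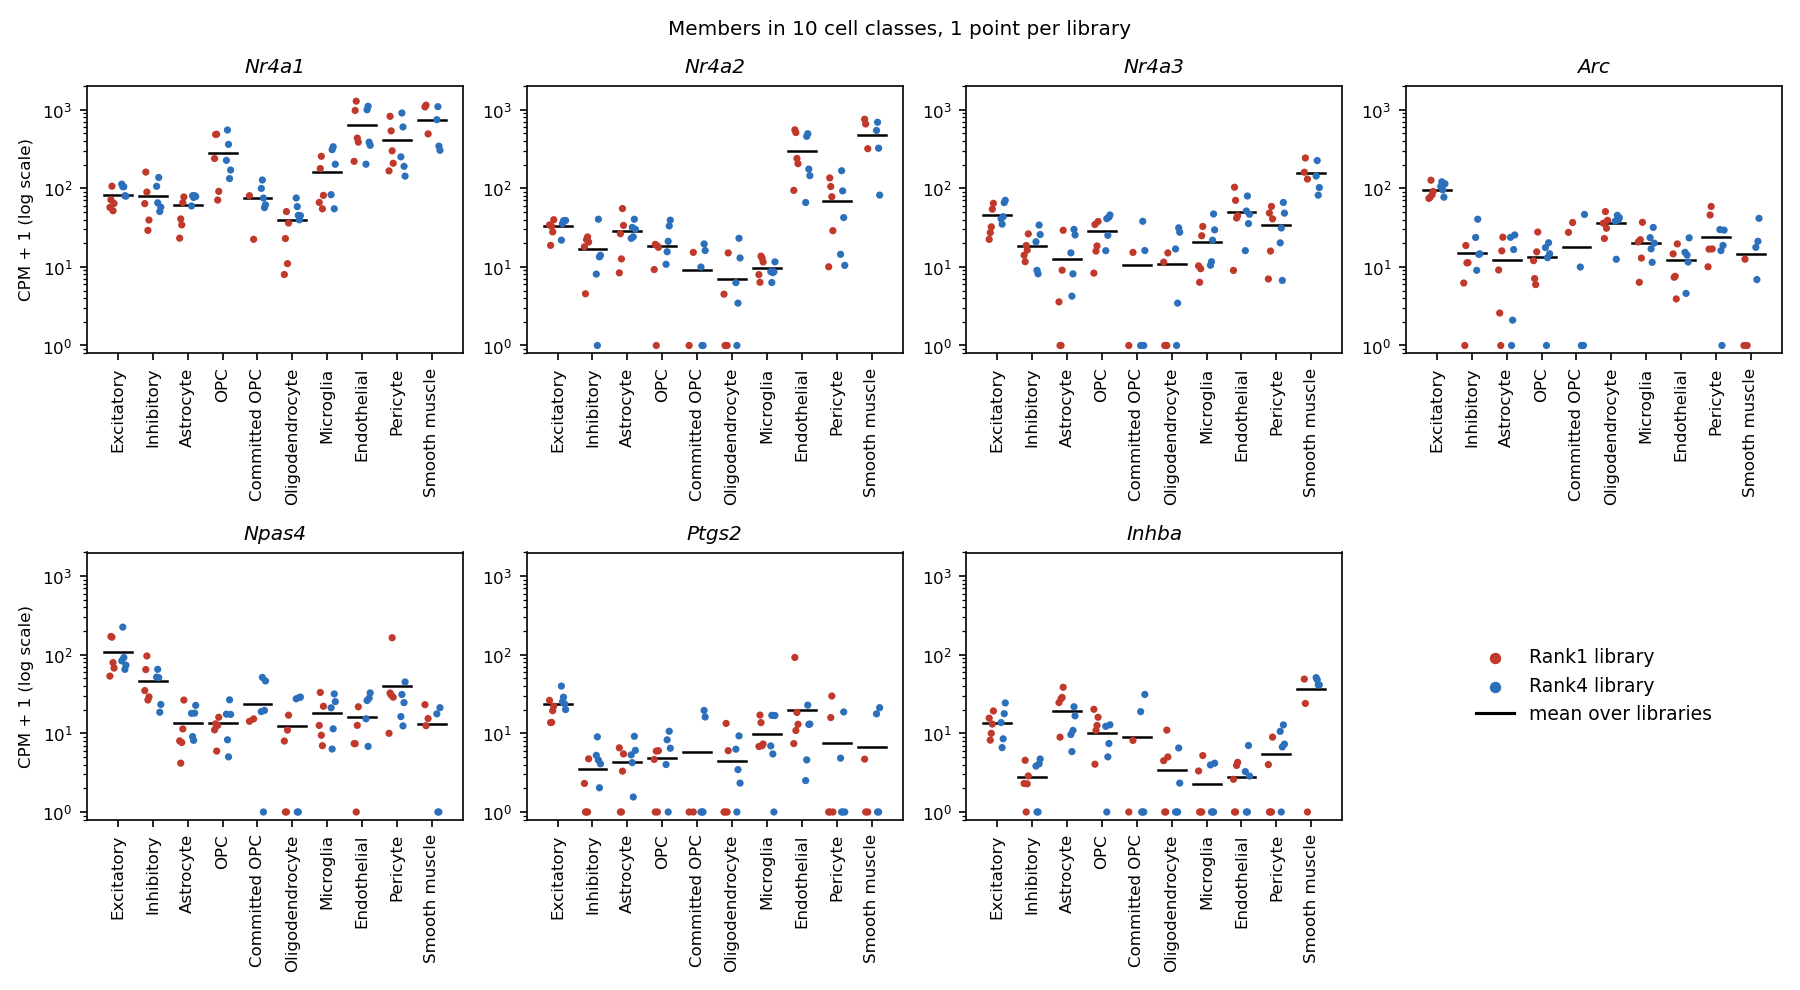
Level of each of the 7 genes in 10 cell classes, with 1 point per library of at least 20 cells, red for Rank1 and blue for Rank4. The y axis is CPM with 1 added, on a log scale, and black lines are means over libraries: Nr4a1 and Nr4a2 are highest in smooth muscle and endothelial cells (742 and 633 CPM for Nr4a1), Arc and Npas4 in excitatory neurons (95.4 and 107 CPM).

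In endothelial cells Nr4a1 and Nr4a2 spread widely over the libraries. Endothelial Nr4a1 was 219 CPM in Rank1 and 201 in Rank4 in replicate 1, 976 and 996 in replicate 2, 1281 and 1103 in replicate 3, 434 and 385 in replicate 4, and 385 and 351 in replicate 5. The 2 libraries of a number differed by at most 1.16-fold, while the highest library was 6.36-fold above the lowest. Endothelial Nr4a1 was higher in Rank1 in 4 of 5 pairs. Endothelial Nr4a2 was higher in Rank1 in 5 of 5 pairs, with 93.1 and 64.9 CPM in replicate 1, 553 and 457 in replicate 2, 511 and 493 in replicate 3, 239 and 174 in replicate 4, and 205 and 144 in replicate 5. Its pairs differed by at most 1.43-fold and its libraries by 8.52-fold. Its log2 difference was 0.28 (adjusted p = 1.00) by edgeR with gene list version and 0.32 (adjusted p = 0.341) with the replicate number as a block, and neither passed. The highest pair ratios of the other receptor levels in vessels were 2.03 for Nr4a3 in endothelial cells, 1.58, 2.95 and 3.19 for Nr4a1, Nr4a2 and Nr4a3 in pericytes, and 1.62, 3.93 and 1.29 for them in smooth muscle cells (3 pairs). The labels do not say what libraries of 1 number share, and the part of handling in these levels was not tested. Nr4a1 in OPC was 238 and 225 CPM in replicate 1, 483 and 550 in replicate 2, 486 and 361 in replicate 3, 69.8 and 132 in replicate 4, and 90.3 and 170 in replicate 5.

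**Figure D2:**
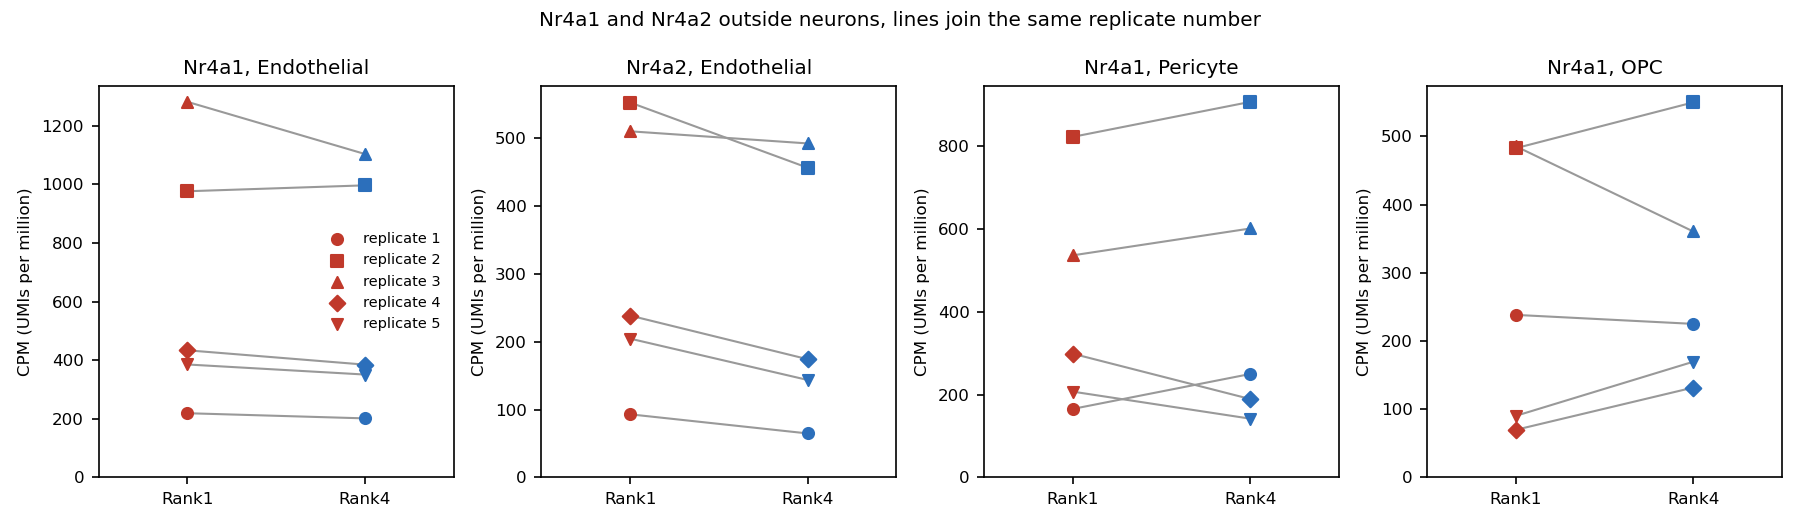
Nr4a1 in endothelial cells, pericytes and OPC and Nr4a2 in endothelial cells, as CPM in each Rank1 (red) and Rank4 (blue) library, with lines joining the libraries of 1 replicate number. Pair ratios in endothelial cells are at most 1.16 for Nr4a1, whose libraries lie up to 6.36-fold apart, and at most 1.43 for Nr4a2, which is higher in Rank1 in 5 of 5 pairs.

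Arc and Npas4 had their highest level in excitatory neurons. Arc had 95.4 ± 19.4 CPM there, from 73.3 to 126 over 10 libraries, and was above each of the 9 other classes by a log2 difference of 1.25 (oligodendrocytes) to 3.17 (smooth muscle cells). Npas4 had 107 ± 58.1 CPM, from 52.5 to 224, and was above each of the 9 by 1.40 (inhibitory neurons) to 2.98 (OPC). For both genes the excitatory level was above that of the next class in order, oligodendrocytes for Arc at 34.7 ± 11.1 CPM and inhibitory neurons for Npas4 at 45.3 ± 24.5 CPM.

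Marker genes of excitatory neurons also had UMIs in every other class, and they give the background for Arc and Npas4. When UMIs were summed over libraries, 7 marker genes of excitatory neurons had in other classes a median of 5.54% (smooth muscle cells) to 25.7% (pericytes) of their level in excitatory neurons. Arc in oligodendrocytes was at 41.0% of its excitatory level and the neuronal marker Nrgn at 39.9%, and the other 6 markers lower (median of the 7, 22.6%), so Arc stood above all 7, by little over the highest. In pericytes Npas4 was at 35.1%, within the marker range of 17.6% to 40.9%. Npas4 in inhibitory neurons was at 40.1% of the excitatory level, above the highest of the 7 markers there, which was at 29.8%. In smooth muscle cells Npas4 was at 16.0%, on 12 UMIs, and the highest marker at 15.4%. In endothelial cells Arc was at 14.6% and Npas4 at 18.8%, below and within the marker range of 15.6% to 31.3%. Nr4a1 at 638% and Nr4a2 at 661% in endothelial cells lay far outside that range.

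Shares of cells with a UMI were read in cells thinned to 1000 UMIs each. A UMI of Arc was in 7.61% ± 1.83 of excitatory neurons and in 4.23% ± 2.46 of oligodendrocytes, and one of Npas4 in 7.98% ± 3.40 and 1.04% ± 1.57 (SD, n = 10 libraries). Without thinning the shares in excitatory neurons were 17.6% for Arc and 15.2% for Npas4, against 5.94% and 1.92% in oligodendrocytes, at median depths of 2183.5 and 1275 UMIs. Thinning left out 2796 of the excitatory neurons and 570 of the oligodendrocytes as too shallow. Nr4a1 was in 33.3% ± 16.7 of thinned endothelial cells and 46.8% ± 18.2 of smooth muscle cells, against 7.16% ± 1.38 of excitatory neurons and 4.25% ± 2.99 of oligodendrocytes.

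Ptgs2 and Inhba, which encode a prostaglandin-making enzyme and the subunit of a secreted factor, had the fewest UMIs of the members. Ptgs2 had 22.3 ± 7.68 CPM in excitatory neurons and 18.8 ± 26.2 in endothelial cells, where 1 library reached 91.5 and the others lay between 1.51 and 21.9. It missed the filter on low counts in the fit over classes. With no filter excitatory neurons were above 8 of the 9 classes for Ptgs2, by 1.15 (microglia) to 3.39 (inhibitory neurons) on the log2 scale, and endothelial cells were the exception (0.37, SE 0.25, adjusted p = 0.228). Perivascular macrophages, left out of the class tests for few cells, had 143% of the excitatory level in summed UMIs, on 8 UMIs of Ptgs2. No 2 neighbours in the order of Ptgs2 levels differed by the test.

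Inhba was highest outside neurons. It had 35.6 ± 18.1 CPM in smooth muscle cells (n = 7, 33 UMIs in all), 18.3 ± 10.7 in astrocytes and 12.7 ± 5.65 in excitatory neurons. Smooth muscle cells were above astrocytes by 1.48 and astrocytes above excitatory neurons by 0.61 (SE 0.19, adjusted p = 0.00261) on the log2 scale. OPC, at 9.25 ± 5.87 CPM, did not differ from excitatory neurons by the test, while inhibitory neurons, at 1.77 ± 1.48, were below them by a log2 difference of 2.69. Between the same 2 classes Nr4a1 gave a log2 difference of 0.22 (SE 0.25, adjusted p = 0.550).

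Within excitatory neurons the 7 genes had distinct layer patterns. Each subclass was compared with the mean of the other 5 in 1 fit over all subclasses, and 29 of 42 tests passed an adjusted p of 0.05. The same contrasts called 42.5% of all genes for L2/3 IT, 31.6% for L5 IT, 38.2% for L5 PT, 30.0% for L5/6 NP, 30.4% for L6 CT and 25.2% for L6 IT.

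Arc was highest in L6 CT neurons, with 160 ± 53.8 CPM (n = 8 libraries, lowest 102, median 144, highest 283), a log2 difference of 1.23 from the mean of the others (SE 0.10, adjusted p = 7.7e-18). L5 IT neurons followed with 124 ± 36.0 and L6 IT neurons with 101 ± 28.2, both also above the mean of the others, by 0.71 and 0.34. The lowest were L5 PT at 59.6 ± 40.7, L2/3 IT at 50.0 ± 15.1 and L5/6 NP at 39.3 ± 4.50, which were below it by -0.45, -0.76 and -1.07. The highest L5/6 NP library, at 45.5 CPM, was below the lowest L6 CT library. Neighbours in this order differed between L6 CT and L5 IT and between L6 IT and L5 PT.

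Npas4 had another order. L2/3 IT neurons had 134.5 ± 113 CPM, from 27.2 to 324, and L5 IT neurons 121 ± 31.9, and both were above the mean of the others, by 0.58 (SE 0.17) and 0.68 (SE 0.15) on the log2 scale. The L2/3 IT value rested on a few libraries: without Rank1 replicate 2 it was 0.37 with an adjusted p of 0.0689. With the immediate early genes left in the clustering it was 0.38 (adjusted p = 0.0918), and with the stricter cell filter 0.40 (adjusted p = 0.115). The remaining subclasses lay between 47.9 and 76.7 CPM, and none of them passed the test. The L5 IT value depended on how the cells were divided. With the immediate early genes left in the clustering it was -0.21 and at clustering resolution 2, where 808 cells took that name, -0.42.

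Ptgs2 and Inhba both had their highest level in L6 IT neurons and their lowest in L5 PT or L5/6 NP neurons. Ptgs2 had 48.9 ± 26.8 CPM in L6 IT (lowest 21.4, median 38.0, highest 90.0), 34.1 ± 15.8 in L5 IT and 25.0 ± 10.1 in L2/3 IT, with log2 differences from the mean of the others of 2.24, 1.69 and 1.34. In L5 PT neurons it had 9 UMIs over 984 cells, 1.62 ± 2.50 CPM (log2 -2.91, SE 0.40), and in L5/6 NP neurons 8 UMIs over 813 cells (log2 -2.11). Each IT subclass was above the subcortically projecting L5 PT subclass for Ptgs2, by 3.54 (L2/3 IT), 3.83 (L5 IT) and 4.29 (L6 IT) on the log2 scale, although L5 PT cells had the highest median depth of the 6, at 3459 UMIs. Inhba had 30.4 ± 18.3 CPM in L6 IT and 21.3 ± 10.7 in L2/3 IT, both above the mean of the others (2.44 and 1.70), and 7.66 ± 6.04 in L5 IT, which was not (-0.13). It had 2 UMIs over 813 L5/6 NP cells (log2 -3.88, SE 0.64), a value set by few molecules.

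Among the receptors, Nr4a2 was most uneven over layers. It had 45.5 ± 15.2 CPM in L6 CT and 45.1 ± 13.8 in L6 IT, each 1.10 above the mean of the others on the log2 scale, 38.7 ± 17.0 in L5 IT (0.73), and 12.5 ± 7.84 in L2/3 IT (-0.93) and 7.31 ± 5.14 in L5/6 NP (-2.32). Nr4a3 was highest in L6 IT at 70.5 ± 18.1 CPM (0.70) and lowest in L2/3 IT at 28.8 ± 17.3 (-0.66), and L5 PT was also below the mean of the others (-0.41). No neighbours in its order differed by the test. Nr4a1 had 112 ± 45.2 CPM in L5 IT (0.60, SE 0.10), 100.1 ± 41.9 in L6 CT (0.37), 91.1 ± 29.5 in L5 PT (0.32), 53.3 ± 16.8 in L2/3 IT (-0.55) and 49.7 ± 11.5 in L5/6 NP (-0.66). Its L5 IT value shrank to 0.11 with the immediate early genes in the clustering and to 0.06 at resolution 2, and then did not pass the test. All 3 receptors were below the mean of the others in L2/3 IT neurons, where Npas4, Ptgs2 and Inhba were above it.

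**Figure D3:**
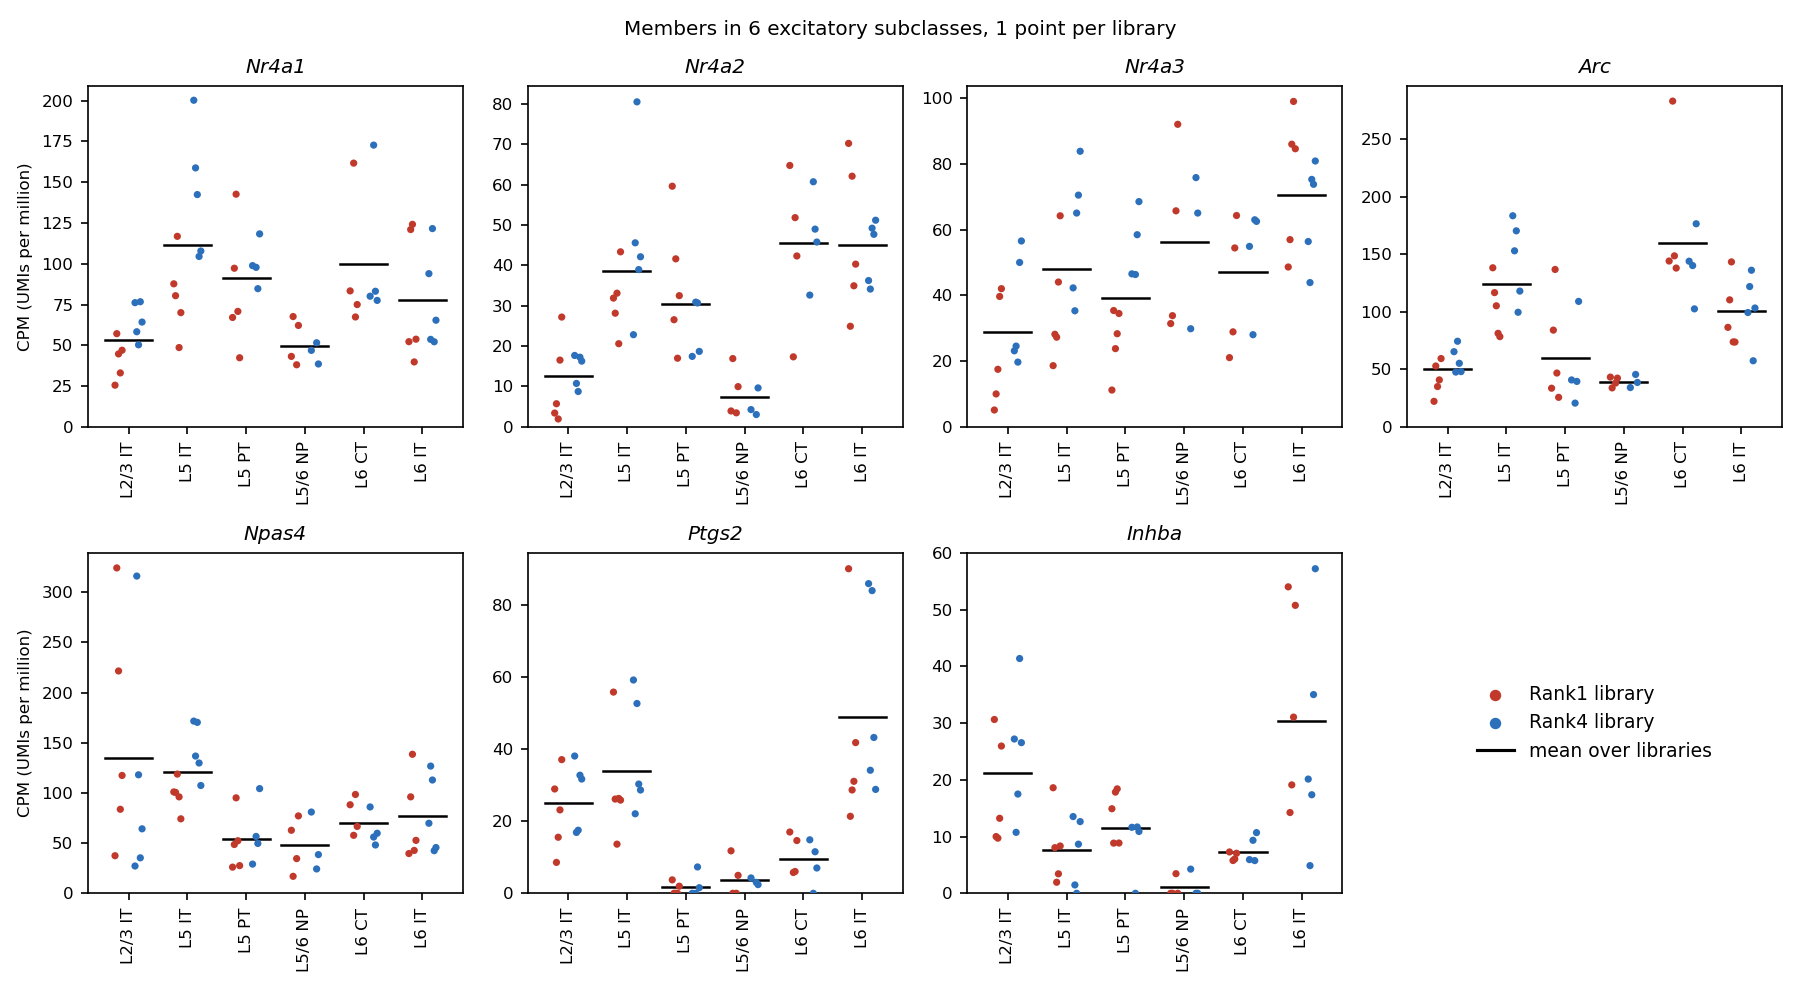
Level of each of the 7 genes in 6 excitatory subclasses as CPM, with 1 point per library of at least 20 cells, red for Rank1 and blue for Rank4, and means as black lines. Arc peaks in L6 CT (160 CPM), Ptgs2 and Inhba in L6 IT (48.9 and 30.4 CPM), and Ptgs2 is near 0 in L5 PT (1.62 CPM).

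The members other than Inhba were found together in the same excitatory neurons more often than their shares gave. In cells thinned to 1000 UMIs, the number of cells with both genes was divided by the number expected within each library and subclass, over 12194 cells with a layer name. All 21 pairs had a pooled ratio above 1, from 1.03 to 3.73. Nr4a2 with Npas4 had the highest, with 90 cells against 24.2 expected, and its ratio was above 1 in 10 of 10 libraries. Nr4a2 with Ptgs2 had 28 against 8.04 (3.48) and Npas4 with Ptgs2 had 54 against 16.7 (3.23). Arc with Nr4a1, the pair with most cells, had 178 against 81.7 (2.18), also above 1 in 10 of 10 libraries. Inhba was the member with the lowest ratios, from 1.03 with Nr4a3 to 1.90 with Ptgs2, each on 9 to 21 cells, and its pairs were above 1 in 4 to 6 of 10 libraries. For comparison, the ratio of a member with each of about 7586 other genes had a median of 0.971 to 0.988 over the members, and the upper end of the range that held the middle 95% of genes was 1.30 to 1.68. For Inhba that range was 0.368 to 1.68, and 5 of its 6 pairs lay inside it, all but that with Ptgs2.

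Co-detection was seen in each layer. Over all pairs the ratio was 2.12 in L2/3 IT, 2.33 in L5 IT, 2.48 in L5 PT, 1.94 in L5/6 NP, 2.02 in L6 CT and 2.42 in L6 IT neurons, with single libraries from 0 to 7.03. Of 14862 thinned excitatory neurons, 25.4% had a UMI of at least 1 member, 5.86% of at least 2, 1.43% of at least 3 and 0.350% of at least 4. The highest number was 6, in 2 cells. Arc was detected in 6.17% of cells with no other member, in 15.3% of cells with at least 1 other and in 25.9% of those with at least 2 others. The same steps were 5.49%, 13.7% and 23.2% for Nr4a1, 5.05%, 12.4% and 23.2% for Npas4, 1.91%, 6.55% and 13.4% for Nr4a2, 3.79%, 8.63% and 14.8% for Nr4a3, and 1.19%, 3.98% and 7.98% for Ptgs2. For Inhba they were 1.37%, 1.77% and 1.94%. These shares pool libraries and layers and are a description.

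**Figure D4:**
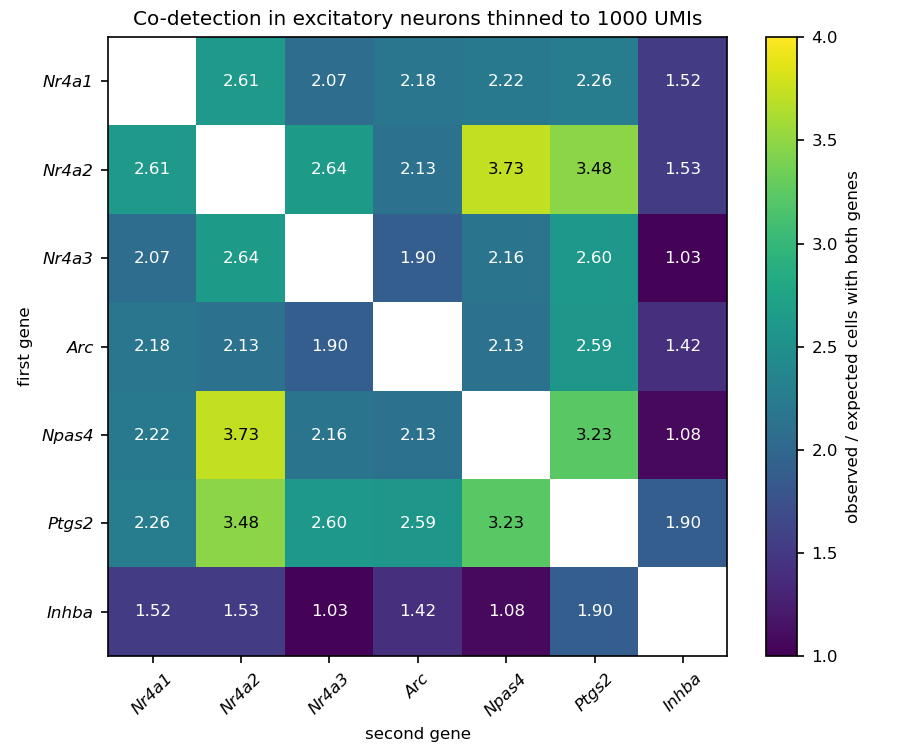
Ratio of observed to expected cells with both genes for each pair, in excitatory neurons thinned to 1000 UMIs, with the expectation taken within library and subclass. Both axes list the 7 genes, colour and number give the ratio (1 is the expected count), and the brightest cells are Nr4a2 with Npas4 (3.73) and with Ptgs2 (3.48), while the row of Inhba is darkest.

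Among genes that are no members and were detected in at least 2% of thinned excitatory neurons, the 3 with the highest ratio were Egr2 (2.78), Fosb (2.46) and Fosl2 (2.12) for Nr4a1, and Egr2 (4.75), Tiparp (4.31) and Fosb (4.19) for Nr4a2. They were Tiparp (3.07), Fosl2 (2.84) and Egr2 (2.62) for Nr4a3, Egr2 (2.80), Fosb (2.43) and Tiparp (2.34) for Arc, and Fosb (3.62), Tiparp (3.53) and Egr2 (2.94) for Npas4. For Ptgs2 they were Fosb (3.56), Egr2 (3.23) and Tiparp (2.93). Egr2 encodes a zinc finger transcription factor, Fosb and Fosl2 encode subunits of the AP-1 factor and Tiparp encodes an ADP-ribosyltransferase. Inhba had Tiparp (3.32, 19 cells against 5.72 expected), Nptx2, which encodes a secreted synaptic pentraxin (2.81), and Stx18, which encodes a syntaxin of the endoplasmic reticulum (2.74, 12 cells). All ratios rest on the same 10 libraries.

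The comparison of ranks asked whether the members differed between dominant and subordinate mice. In excitatory neurons Nr4a1 was 56.1, 70.3, 105, 50.8 and 63.2 CPM in Rank1 replicates 1 to 5 and 112, 104, 104, 79.3 and 78.4 CPM in Rank4. Of the Rank1 libraries 1 reached the lowest Rank4 library, and Rank1 was lower in 4 of 5 pairs of the same number. Its mean was 69.1 ± 21.5 CPM in Rank1 and 95.4 ± 15.5 in Rank4 (n = 5 each), a log2 difference of -0.49 (SE 0.15, adjusted p = 1.00) by edgeR with the gene list version, described under the methods, as a covariate. Nr4a3 was 21.4, 26.3, 31.3, 53.2 and 63.4 CPM in Rank1 and 40.0, 34.0, 42.5, 64.7 and 69.2 in Rank4. It was lower in Rank1 in 5 of 5 pairs although the groups overlapped (log2 -0.42, SE 0.14). Ptgs2 was 25.3, 12.7, 12.8, 18.4 and 21.2 CPM in Rank1 and 39.0, 24.2, 27.9, 22.8 and 19.1 in Rank4 (log2 -0.49, SE 0.24). The other members were closer, with log2 differences of -0.20 for Arc, -0.17 for Nr4a2, -0.08 for Inhba and -0.00 for Npas4, and the signs of Inhba and Npas4 turned with the library left out. Leaving out 1 library moved Nr4a2 between -0.29 and -0.03 and Arc between -0.34 and -0.11.

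None of these passed the adjusted threshold. Over 9 classes 0 of 29 member tests were called, at a background of 0.00650% of all gene tests, and over the 6 excitatory subclasses 0 of 35, at a background of 0%. At an unadjusted p below 0.05 there were 5 of 29 and 7 of 35 member tests, beside 2.46% and 3.76% of all gene tests in the same fits, and DESeq2 called 0 and 1. In excitatory neurons 2 of 7 members, Nr4a1 and Nr4a3, were by edgeR below an unadjusted 0.05, where 3.76% of genes were. The median log2 difference of the 7 members there was -0.20, against -0.01 over all genes. Members were read in the same libraries, so such counts and medians are a description. The ranks were also compared within each gene list version: Nr4a1 was -0.50 in replicates 1 to 3 alone and -0.45 in replicates 4 and 5 alone, Nr4a3 -0.60 and -0.18, and Ptgs2 -0.81 and -0.05. Without Rank4 replicate 1, the library that lost most barcodes, Nr4a1 was -0.46, Nr4a3 -0.38 and Ptgs2 -0.31.

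The member test with the lowest unadjusted p was Nr4a1 in L5 IT neurons. It was 87.7, 80.4, 117, 48.6 and 70.0 CPM in Rank1 replicates 1 to 5 and 200.3, 159, 142, 104 and 108 CPM in Rank4. Rank1 was lower in 5 of 5 pairs, and only the Rank1 replicate 3 library reached into the Rank4 range. The means were 80.7 ± 25.0 and 143 ± 39.5 CPM. The log2 difference was -0.83 (SE 0.16, unadjusted p = 8.4e-05), with an adjusted p of 0.780. It was -0.81 in replicates 1 to 3 alone and -0.83 in replicates 4 and 5 alone. With the replicate number as a block it was -0.82 with an adjusted p of 0.000719, and that fit called 0.194% of genes in these cells. DESeq2 gave -0.82 (adjusted p = 0.0329), and edgeR with no filter on low counts gave -0.85 (adjusted p = 0.00962). Without Rank4 replicate 1 it was -0.72.

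By CPM other members lay the same way in L5 IT neurons. All 6 that passed the filter were lower in Rank1, with a median log2 difference of -0.48 against 0.00 over all genes, and 4 of 6 were at an unadjusted p below 0.05, where 4.15% of genes were. The members were read in the same libraries and chosen with earlier results of these data known, so this count is a description. Npas4 was 101, 100.5, 119, 96.1 and 74.2 CPM in Rank1 and 172, 137, 170.3, 130 and 107 in Rank4 (log2 -0.51, SE 0.15, adjusted p = 1.00). Arc was 138, 117, 105, 81.2 and 78.4 CPM in Rank1 and 183, 153, 170.3, 99.5 and 118 in Rank4 (log2 -0.46, SE 0.14). Nr4a3 was -0.63 and each of Arc, Npas4 and Nr4a3 was lower in Rank1 in 5 of 5 pairs. Inhba failed the filter there, with 89 UMIs in all, and its mean was not lower in Rank1 (8.07 ± 6.52 CPM against 7.26 ± 6.25 in Rank4). The median depth of L5 IT cells was 3047 to 10163 UMIs in Rank1 libraries and 1992 to 4425 in Rank4 libraries, and their summed endothelial markers (6 of 6 measured) were at 20.6 to 143 CPM in Rank1 and 52.9 to 77.4 in Rank4. In L5 IT cells thinned to 1000 UMIs, Nr4a1 was in 7.93% ± 2.18 of Rank1 and 12.5% ± 3.07 of Rank4 cells, Arc in 8.81% ± 1.57 and 12.05% ± 3.03, and Nr4a3 in 3.80% ± 1.83 and 5.13% ± 1.37. The thinned share of Npas4 ran the other way, at 9.63% ± 2.02 in Rank1 and 8.87% ± 2.07 in Rank4, so no order of the ranks is read for Npas4 in these cells. The part of RNA from other cells in these differences was not tested.

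In L5 PT neurons Nr4a3 was lower in Rank1 in 4 of 4 pairs of the same number. It was 11.2, 35.4, 23.8, 28.3 and 34.5 CPM in Rank1 replicates 1 to 5 and 46.5, 46.3, 58.4 and 68.5 CPM in Rank4 replicates 1, 3, 4 and 5, while Rank4 replicate 2 had too few cells. Every Rank1 library was below every Rank4 library, with means of 26.6 ± 9.84 (n = 5) and 54.9 ± 10.7 CPM (n = 4). The groups overlapped for the other members in L5 PT and for all members in the other cell types compared. The share of all genes with groups apart in this way is not given here, so the separation is a description. The log2 difference of Nr4a3 was -0.99 (SE 0.25) with an adjusted edgeR p of 1.00, -1.06 (adjusted p = 0.0811) with the block and -0.97 in replicates 4 and 5 alone, and no value was computed for replicates 1 to 3 alone. These libraries held 3 to 44 UMIs of Nr4a3 in L5 PT cells, and after thinning it was in 1.79% ± 1.29 of Rank1 and 4.13% ± 2.77 of Rank4 cells.

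In L2/3 IT neurons Nr4a1 was lower in Rank1 by CPM, at 25.5, 57.1, 44.7, 33.0 and 47.0 CPM against 76.1, 58.3, 50.3, 76.7 and 64.2 in Rank4 (5 of 5 pairs, log2 -0.66, SE 0.21, adjusted p = 1.00). The share of L2/3 IT cells with Nr4a1 was close in both ranks after thinning to 1000 UMIs, at 5.10% ± 0.582 and 5.29% ± 1.73. Npas4 had the other sign. It was 37.4, 324, 222, 83.7 and 117 CPM in Rank1 and 27.2, 316, 118, 35.3 and 64.2 in Rank4, higher in Rank1 in 5 of 5 pairs although libraries spread 11.9-fold. Its log2 difference was 0.60 (SE 0.49) in the fit with gene list version, 0.32 in replicates 1 to 3 alone, 1.06 in replicates 4 and 5 alone, and 0.64 (SE 0.15, adjusted p = 0.0267) with the replicate number as a block, where 0.536% of genes were called. Leaving out 1 library moved it between 0.31 (without Rank4 replicate 1) and 1.26 (without Rank4 replicate 2). It was 0.33 without Rank1 replicate 2 and 0.90 without Rank1 replicate 1. In L5 IT neurons the thinned share of Npas4 ran the other way from its CPM, as given above, which limits a comparison with L2/3 IT. By CPM, the rank difference of Npas4 in L5 IT less that in L2/3 IT was -1.23 on the log2 scale and did not pass an exact two-sided permutation test over libraries (p = 0.183, adjusted p = 0.833 over 14 such tests). It was below 0 in 5 of 5 pairs of the same number, and an exact sign-flip test over these pairs gave p = 0.0625, the smallest that 5 pairs can give (adjusted p = 0.438).

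**Figure D5:**
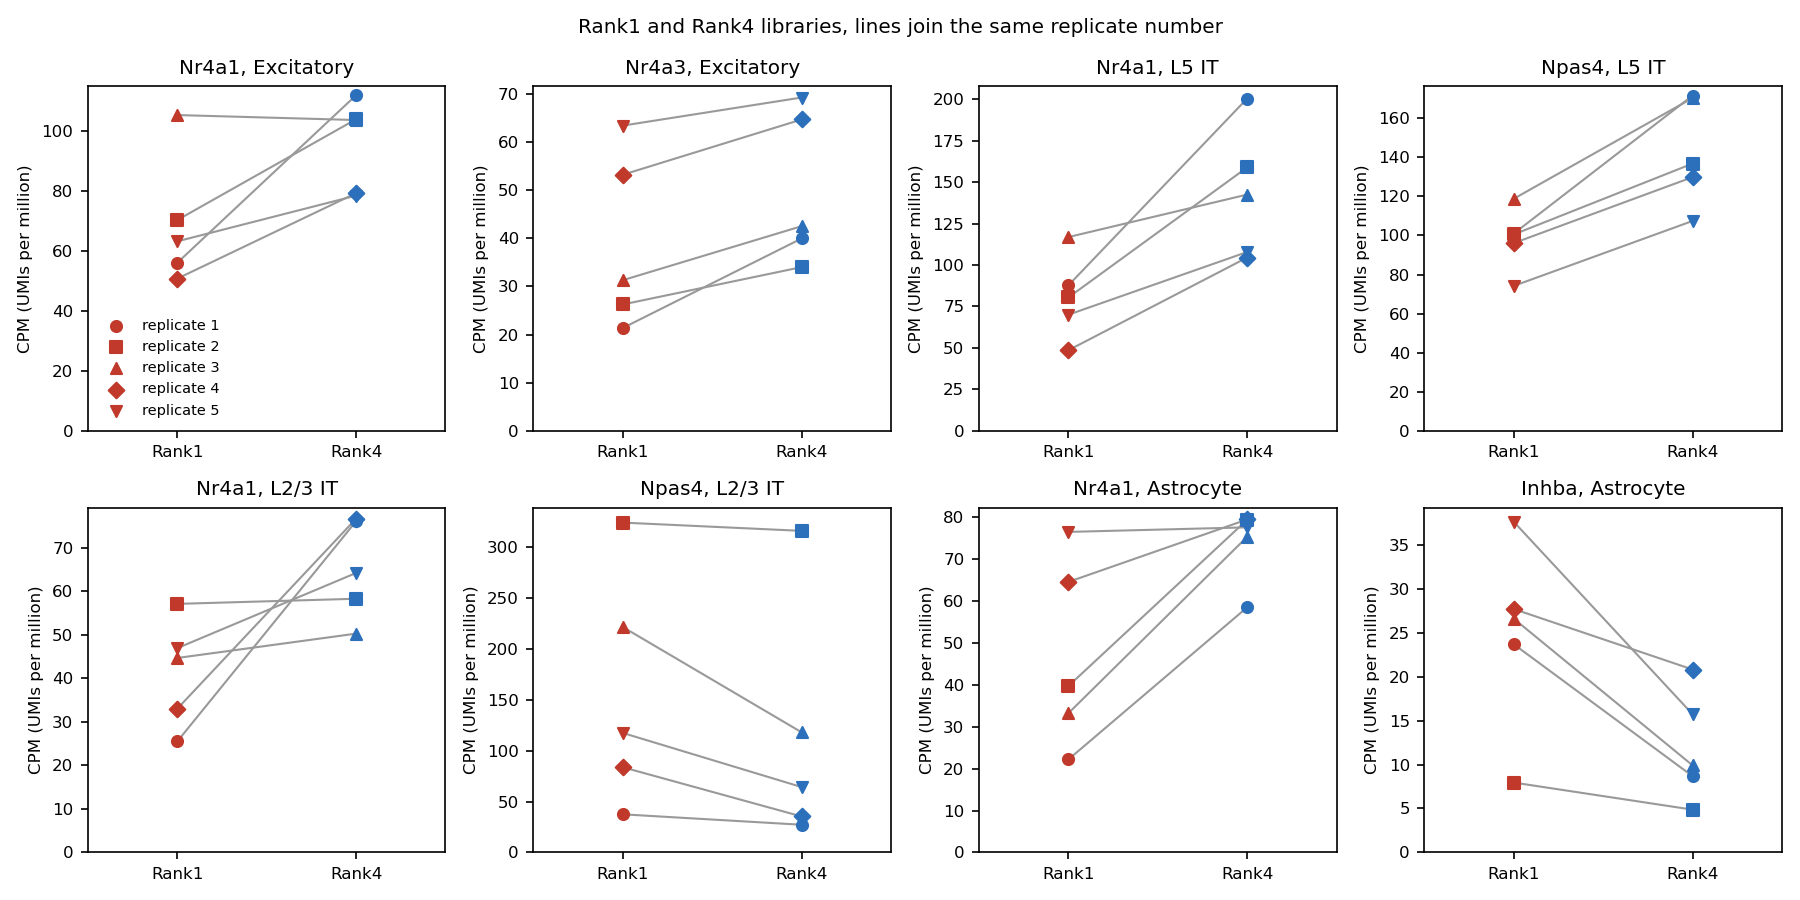
CPM of 8 gene and cell type pairs in Rank1 (red) and Rank4 (blue) libraries, with lines joining libraries of 1 replicate number and y axes from 0. Nr4a1 in L5 IT neurons is lower in Rank1 in 5 of 5 pairs (80.7 against 143 CPM on average), while Npas4 in L2/3 IT neurons and Inhba in astrocytes are higher in Rank1 in 5 of 5.

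Outside neurons, astrocytes held the members with a call under the block. Nr4a1 in astrocytes was 22.2, 39.7, 33.2, 64.6 and 76.5 CPM in Rank1 and 58.5, 79.4, 75.4, 79.5 and 77.6 in Rank4, lower in Rank1 in 5 of 5 pairs. The log2 difference was -0.76 (SE 0.25, adjusted p = 1.00), and -0.71 (adjusted p = 0.0267) with the block. It was -1.22 in replicates 1 to 3 alone and -0.13 in replicates 4 and 5 alone. Inhba in astrocytes was 23.7, 7.94, 26.6, 27.7 and 37.6 CPM in Rank1 and 8.67, 4.86, 9.90, 20.8 and 15.7 in Rank4, higher in Rank1 in 5 of 5 pairs. Its log2 difference was 1.05 (SE 0.28, adjusted p = 1.00), 1.24 in replicates 1 to 3 alone, 0.91 in replicates 4 and 5 alone, and 1.10 (SE 0.22, adjusted p = 0.00550) with the block, where 0.690% of genes were called in astrocytes. The Inhba difference in astrocytes less that in excitatory neurons was 1.03 (exact two-sided permutation p = 0.0238, adjusted p = 0.333), and did not pass. It was above 0 in 5 of 5 pairs (exact sign-flip p = 0.0625). Summed excitatory markers (8 of 8 measured) in astrocytes were at 89.0 to 1162 CPM in Rank1 and 139 to 1474 in Rank4, and the part of such RNA in the Nr4a1 difference was not tested. Over all cell types the block called 2 member tests in classes and 2 in subclasses, at backgrounds of 0.166% and 0.354%.

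How often members shared a cell did not pass a test between the ranks at 1000 UMIs. For this comparison 0.5 was added to the observed and to the expected cells of each pair in a library. That draws ratios toward 1 where few cells are expected. The mean log2 co-detection ratio over pairs was 0.71 ± 0.24 in Rank1 and 0.90 ± 0.28 in Rank4, a difference of -0.19 (exact two-sided permutation test over 5 against 5 libraries, p = 0.222). The share of thinned excitatory neurons with at least 2 members was 5.47% ± 1.54 in Rank1 and 6.31% ± 1.16 in Rank4, a difference of -0.84 percentage points (exact permutation p = 0.349). The co-detection difference was -0.10 in replicates 1 to 3 alone and -0.33 in replicates 4 and 5 alone, and that of the share -0.86 and -0.81 points. At 500 UMIs the co-detection difference was 0.18. At 2000 UMIs the shares were 11.5% ± 1.53 and 14.0% ± 0.693 (exact permutation p = 0.0159), and without thinning 19.1% ± 7.07 and 18.0% ± 2.26, in the other direction. The smallest p this test can give is 0.00794.

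Other genes of these pathways were read from lists chosen with earlier results of these data known. Genes of a list share the same libraries, so the counts and medians of a list are a description and not a test. In the fit with gene list version, no gene of any of 7 lists passed between the ranks in excitatory or L5 IT neurons. Of 15 activity-induced transcription factors, 14 were tested in excitatory neurons, 4 had an unadjusted p below 0.05, and the median log2 difference was -0.33. Of 18 activity-induced effectors 18 were tested, 9 were below an unadjusted 0.05, and the median was -0.28, beside 3.76% of all genes below it in that fit and a median of -0.01. Upstream activity-regulated factors (9 of 9 tested, median -0.05), dimer partners of the receptors and Npas4 (5 of 5, -0.08), prostaglandin pathway genes (5 of 9, -0.10), activin pathway genes (10 of 10, 0.02) and heat shock genes (8 of 8, -0.13) had 0 below it. In L5 IT neurons the medians were -0.44 for 13 activity-induced transcription factors and -0.34 for 15 effectors.

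With the replicate number as a block, listed genes passed in 7 cell types, and they are named here after their values were seen. In excitatory neurons Btg2, an antiproliferative gene, rose in Rank1 by 0.75 and Nptx2 fell by 0.67 on the log2 scale, where 0.0724% of all genes were called. In L5 IT neurons the transcription factor genes Egr1 and Egr3 fell by 0.69 and 0.59, and Gadd45b, a stress response gene, and Homer1, which encodes a postsynaptic scaffold, fell by 0.89 and 0.62, where 0.194% were called. In L2/3 IT neurons Bdnf, Dusp6, Nptx2, Vgf, Egr1 and Egr2 fell by 0.81, 1.08, 0.82, 0.64, 0.89 and 1.30 and Btg2 rose by 0.63, where 0.536% were called. Btg2 also rose in L6 CT (1.09, with Ier2 at 0.76) and L6 IT neurons (1.24, with Gadd45b at -0.72), where 0.442% and 0.380% of genes were called. Outside neurons Egr3 (-1.13) and the heat shock gene Hsph1 (-0.57) fell in astrocytes and Hsph1 (-0.68) in endothelial cells, where 0.690% and 0.112% of genes were called. In excitatory neurons and their subclasses no listed gene passed without the block.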

How the data were processed

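The deposited files hold raw counts of UMIs per gene and barcode for each of 10 libraries. The submitters' processing notes name Cell Ranger 4.0.0 and mm10. Version 3.1.0 stands in the headers for replicates 1 to 3, which list 31053 genes, whereas 4.0.0 stands in the headers for replicates 4 and 5, which list 32285 genes, per the file headers. The 30406 genes common to both lists were used. How the authors called cells is not given in the sources used here.

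Cells with at least 500 genes and at most 15% mitochondrial UMIs were kept. Doublets were scored against simulated doublets, and the highest scores were removed at a rate of 0.8% per 1000 barcodes (4820 barcodes). Leiden clustering (igraph 0.11.9, leidenalg 0.10.2; 2000 variable genes, 30 components, 15 neighbours, resolution 1) left out 40 early response genes, and clusters were named from marker lists. Raw counts were summed per library and cell type (at least 20 cells) and tested over all genes with edgeR 4.0.16 quasi-likelihood tests, TMM scaling and filterByExpr (minimum count 10), with Benjamini-Hochberg adjustment and gene list version as covariate for rank. SEs are the log2 difference over the root of the F statistic. A cell type entered the rank tests with at least 3 libraries per rank. DESeq2 1.42.0, other filters, other clusterings, other depths and left-out libraries were alternatives. Libraries of 1 replicate number deviated together (correlations of 0.768, 0.859, 0.817, 0.866 and 0.920 over 9555 genes; 0.184 to 0.806 within version), so a replicate block was also fitted. The pairing comes from the data and not the labels, and some unlike numbers were as close: Rank1 replicate 3 gave 0.833 with Rank4 replicate 2 (0.546 within version, against 0.378 with its own number), Rank1 replicate 5 gave 0.921 with Rank4 replicate 4, and Rank1 replicate 2 gave 0.827 with Rank4 replicate 3.

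The members and lists were chosen with earlier results of these data known. Genes that are no members were named where a listed gene passed the rank test without the block in excitatory neurons or a subclass (none did), as the 3 highest in co-detection for a member among genes in at least 2% of thinned excitatory neurons, or as markers beside a result; listed genes called under the block were named after their values were seen. Positions are from GENCODE on GRCm38. The tests were tested on simulated data. Low UMI counts limit precision. Perivascular macrophages, fibroblasts and unnamed clusters were left out of the class tests for few cells or no name.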

Additional observations from a re-analysis of the deposited data

Results flagged for a closer look

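Of 46 groups of Rank1 or Rank4 libraries tested for a member in a cell type, 4 had 1 library far from the rest, and chance gives about 1 in 20. Nr4a2 in excitatory neurons was 20.9 CPM in Rank4 replicate 1 and 34.5 to 37.9 in the other Rank4 libraries. Npas4 in excitatory neurons was 224 CPM in Rank4 replicate 2 and 64.2 to 91.2 in the others. Nr4a1 in astrocytes was 58.5 CPM in Rank4 replicate 1 and 75.4 to 79.5 in the others. Ptgs2 in endothelial cells was 91.5 CPM in Rank1 replicate 2 (43 UMIs in 250 cells) and 6.42 to 17.5 in the others.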

How the results depend on the processing

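An alternative of a single test was the same if it kept direction and side of the threshold. For a count of calls it was the same if the count stayed close to the main one. By this rule 580 alternatives were the same, 11 were stronger, 6 were weaker and 18 changed sign. Some calls entered both a count and a single test. Pairing by replicate number (the block) called 2 member tests in other classes and 2 in subclasses, where the fit without it called 0, and 0 of the members in excitatory neurons. Over all genes it called 102 tests in classes and 171 in subclasses, against 4 and 0 without it. In subclasses DESeq2 and the fit with no filter each called 1. Exact permutation tests with the block gave p = 0.312 for co-detection and p = 0.188 for the share with 2 or more members. Over 5 pairs such a test cannot go below 0.0625, so neither it nor the paired test of 14 differences of a rank effect between cell types, added after seeing the data, could pass, and they say nothing of stability. The same holds for permutation tests within 1 gene list version, and all of these are counted among the 580. Leaving out 1 library kept 0 rank calls in every set, 38 to 46 class calls and 27 to 29 layer calls. The strict cell filter left 16 class calls of 20 tests, since fewer classes kept enough cells, and this count is among the 6 weaker ones. The rank difference in co-detection was -0.19 at 1000 UMIs (without 1 library -0.28 to -0.09) and 0.18 at 500 UMIs. That in the share with 2 or more members was -0.84 at 1000 UMIs (without 1 library -1.34 to -0.26), 1.13 unthinned and -2.47 at 2000 UMIs (exact permutation p = 0.0159). Npas4 in excitatory neurons changed sign to 0.0047 (DESeq2), 0.011 (immediate early genes in clustering), 0.0061 (resolution 2), 0.052 (strict filter) and 0.10 (replicates 4 and 5), and ran from -0.13 to 0.32 without 1 library (0.22, 0.03, 0.32 and 0.02 without Rank1 replicates 1 and 5 and Rank4 replicates 2 and 5). Inhba there was 0.24 in replicates 1 to 3, and -0.32 to 0.10 without 1 library (0.01, 0.07, 0.04 and 0.10 without Rank1 replicates 2 and 4 and Rank4 replicates 1 and 5). Npas4 in L5 IT against other layers was -0.21 with the immediate early genes in clustering and -0.42 at resolution 2. The cause of these changes was not tested. Depth limits the low genes: Inhba had 2 UMIs in all L5/6 NP cells and Ptgs2 9 in all L5 PT cells.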
